A study of Homo sapiens with 9 samples.

Results

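The peaks that 5 chromatin immunoprecipitation sequencing (ChIP-seq) lists place on chromosome 14 of the hg19 build are described here, 1151 of 52875 in all. They were chosen by chromosome alone: every peak called there is included, whatever its score or overlap. The lists come from 2 established clear cell renal carcinoma lines, 786-O and A498, whose cells carried an eGFP knock-in at ZNF395 or were parental, and from parental 786-O precipitated for MYC. On chromosome 14 they held 532 peaks for tagged 786-O, 74 for tagged A498, 489 for MYC in parental 786-O, 37 for GFP in parental 786-O and 19 for GFP in parental A498. A group is a single library throughout: differences could not be checked on replicates, no p-value is given, and the 95% intervals below (exact binomial, Clopper-Pearson) cover counting error only.

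ZNF395 is a zinc finger protein that binds DNA and was read here through its eGFP tag with a GFP antibody; the same antibody in cells without the tag gives the background. MYC is a transcription factor that binds DNA together with its partner MAX. Chromosome 14 is acrocentric: its short arm is missing from the assembly, and the long arm, 14q, is often lost in clear cell carcinoma. It carries HIF1A, which encodes a subunit of the hypoxia-inducible factor, and MAX. The labels conflict in places. The cell line field says 786-O for the samples whose titles say A498. The MYC library has MYC in its title and antibody and P300, a coactivator, in its target field. The names used here are those of the titles. The labels say that cells were electroporated with a donor and a guide plasmid, and do not say whether the tagged cells are a clone or a pool.

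Chromosome 14 had far fewer ZNF395-eGFP peaks in A498 than in 786-O. It held 2.73% (95% interval 2.51 to 2.97) of the autosomal peaks of tagged 786-O and 0.994% (0.781 to 1.246) of those of tagged A498. Of the autosomal MYC peaks it held 2.47% (2.26 to 2.70), and of the parental peaks 1.14% (0.806 to 1.57) in 786-O and 1.39% (0.841 to 2.17) in A498. The 786-O shares for ZNF395-eGFP and MYC thus had overlapping intervals, while those for tagged A498 and both parental lists lay below them.

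Set against each other, the tagged lists gave 7.19 peaks in 786-O for each peak in A498 on chromosome 14 (5.63 to 9.30), against 2.57 (2.50 to 2.64) on the other 21 autosomes together. This was the second highest ratio of the 22 autosomes, after chromosome 18 with 8.22. Across the other autosomes the median was 2.99, and the lowest was 1.57 on chromosome 7. The ratio depends on list length and on the unit counted: with both lists limited to equal length it was 2.53 on chromosome 14 and 0.996 elsewhere, and counted in bases covered by peaks it was 11.96 and 4.41. It was the higher on chromosome 14 under each of the 6 alternatives tried. Relative to MYC sites, tagged 786-O peaks numbered 1.09 per MYC peak (0.960 to 1.23) on chromosome 14, against 0.982 (0.963 to 1.00) elsewhere, with overlapping intervals. Tagged A498 peaks numbered 0.151 per MYC peak (0.117 to 0.194), against 0.382 (0.372 to 0.393).

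**Figure D1:**
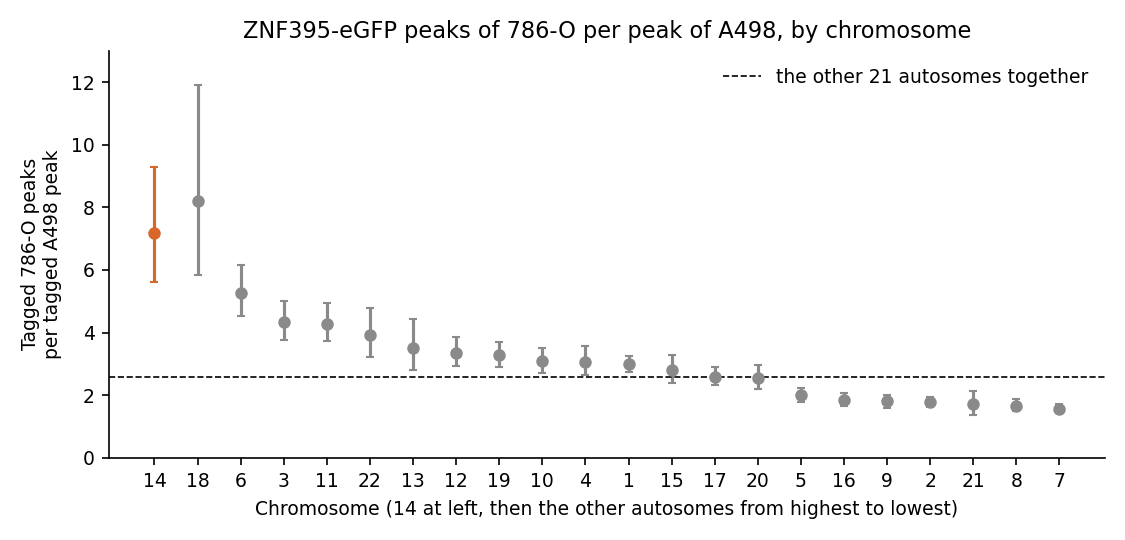
Number of ZNF395-eGFP peaks of 786-O per peak of A498 (vertical axis) on each autosome (horizontal axis), with chromosome 14 at the left. Points are ratios of peak counts, bars are 95% intervals from the exact binomial, and the dashed line is the ratio of 2.57 over the other 21 autosomes; chromosome 14 stands at 7.19, next to chromosome 18 at 8.22.

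Few of the 786-O sites of chromosome 14 had a counterpart in A498, while nearly all A498 sites had one in 786-O. Of the 532 tagged 786-O peaks, 63 (11.8%, 9.22 to 14.9) overlapped a tagged A498 peak by at least 1 bp, against 20.8% (20.2 to 21.4) on the other 21 autosomes and 20.6% over all 22. The share was lower only on chromosome 18, with 11.2%. With 74 tagged A498 peaks against 532 of tagged 786-O, it could hardly have been much higher: the low A498 count bounds it. The splits of these peaks by score, MYC and block below divide the same total, and the 786-O-only share is largely its reverse. In the other direction, 64 of the 74 tagged A498 peaks (86.5%, 76.5 to 93.3) overlapped a tagged 786-O peak, against 57.1% (55.9 to 58.2) elsewhere. This share was higher on chromosomes 18 (94.6%) and 6 (86.7%). Those chromosomes also had many tagged 786-O peaks per tagged A498 peak, 8.22 and 5.27. On chromosome 7, with the lowest ratio (1.57), the share was 41.7%. The share thus went with the ratio of counts. Neither it nor the A498-only share below is a result separate from that ratio. With peaks at parental sites of the same line removed (the remainder is called tagged-only below), the shares were 9.92% (7.45 to 12.9) against 16.4% in 786-O and 73.9% (61.9 to 83.7) against 41.6% in A498. When overlap had to be 50% reciprocal, the A498 share was 10.1% (4.18 to 19.8) on chromosome 14, against 12.8% elsewhere. It was thus no longer the higher, and its interval holds the other value.

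The gap was present among strong peaks. The tagged 786-O peaks of the 22 autosomes were divided into 10 equal parts by the authors' score, the −log10 of a p- or q-value against the library's own control. In the highest part, 24 of the 42 peaks on chromosome 14 (57.1%, 41.0 to 72.3) had an A498 peak, against 74.0% (72.0 to 76.0) elsewhere, with intervals that just overlap. In the upper 5 parts together it was 57 of 247 (23.1%, 18.0 to 28.8), against 37.5% (36.5 to 38.5), with intervals apart. In the lower 5 parts it was 6 of 285 (2.11%, 0.776 to 4.53), against 4.02% (3.63 to 4.44), with overlapping intervals. The median score of tagged 786-O peaks was 12.1 on chromosome 14, against 13.2 elsewhere. With the parts of the other autosomes weighted as on chromosome 14, their share was 18.6%, still above 11.8%. Weighting by score does not lift the bound set by the low A498 count, so this is no separate result.

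Sites with and without MYC both showed the lower share. Of the 288 tagged 786-O peaks of chromosome 14 at a MYC peak, 53 (18.4%, 14.1 to 23.4) had an A498 peak, against 28.7% (27.9 to 29.5) elsewhere. Of the 244 without MYC, 10 did (4.10%, 1.98 to 7.41), against 8.39% (7.77 to 9.05). Of the 63 sites found in both lines, 53 carried MYC (84.1%, 72.7 to 92.1), against 84.3% (83.1 to 85.4), with overlapping intervals. Their median 786-O score was 37.8, against 36.4 elsewhere, and their median width 853 bp, against 822 bp.

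**Figure D2:**
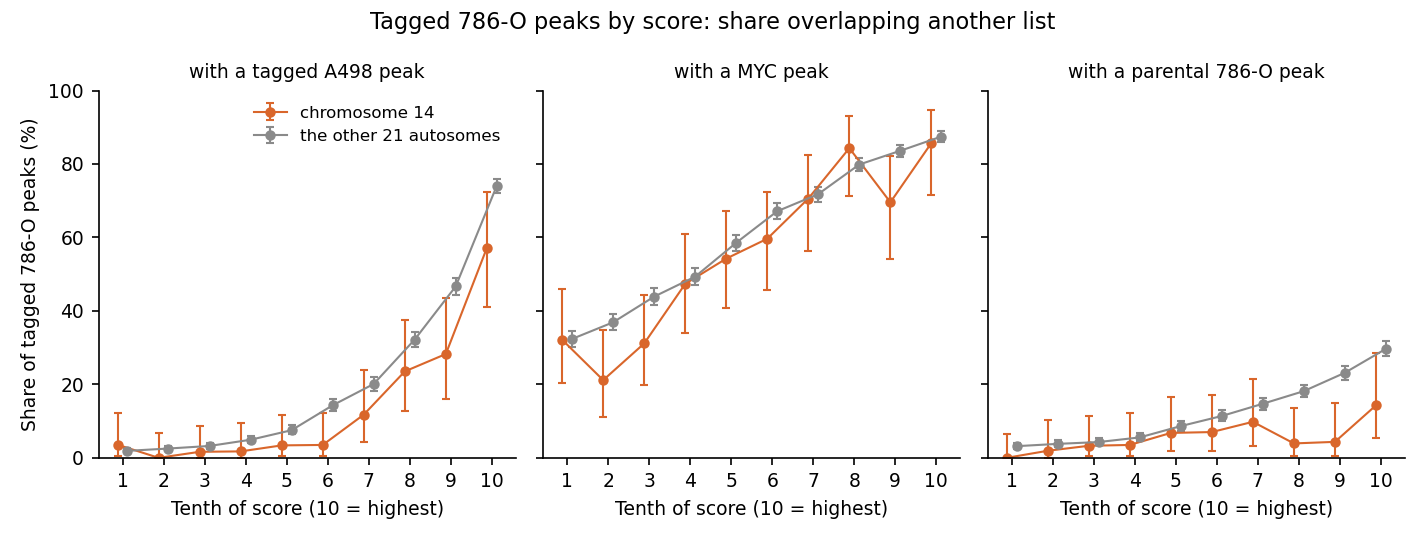
Share of tagged 786-O peaks (vertical axis, percent) that overlap a tagged A498, a MYC or a parental 786-O peak, in 10 equal parts by score from lowest to highest (horizontal axis), for chromosome 14 and the other 21 autosomes. Points are shares and bars are exact 95% intervals; for A498 peaks the chromosome 14 share lies below the other in 9 of the 10 parts, ending at 57.1% against 74.0% in the highest, and for parental peaks in all 10.

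Along the chromosome, tagged 786-O and MYC peaks were sparse in the same 2 blocks between filled ones. The first peak of any list began at 19008010 and the last ended at 107281101. By 10 Mb blocks, tagged 786-O had none below 20 Mb, 70 from 20 to 30 Mb, 51 from 30 to 40 Mb and 7 from 40 to 50 Mb. It had 73 from 50 to 60 Mb, 68 from 60 to 70 Mb, 90 from 70 to 80 Mb and 19 from 80 to 90 Mb. The 2 distal blocks held 56 and 98. The blocks from 40 to 50 and from 80 to 90 Mb were thus sparse, as they were for MYC, with 7 and 14 peaks.

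Tagged A498 had few peaks in every block. It had 2 peaks from 10 to 20 Mb, where tagged 786-O had none, 5 from 20 to 30 Mb, 4 from 30 to 40 Mb and 2 from 40 to 50 Mb. It had 11, 10 and 16 in the 3 blocks from 50 to 80 Mb, 3 from 80 to 90 Mb, 8 from 90 to 100 Mb and 13 beyond 100 Mb. Each of these 11 blocks, from 0 to 110 Mb, lay below the median of 20 tagged A498 peaks per block on the other autosomes, while for tagged 786-O 5 of the 11 lay below that median, which was 52. The blocks from 0 to 10 and from 10 to 20 Mb are almost wholly unassembled, so they had to lie below both medians.

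The low share of 786-O sites found in A498 extended over all well-filled blocks. In the 7 blocks with at least 20 tagged 786-O peaks it ranged from 5.88% (30 to 40 Mb, 3 of 51) to 14.7% (60 to 70 Mb, 10 of 68), with a median of 12.2%. The 262 such blocks of the other autosomes had a median of 19.6% and a lower quartile of 15.4%, above all 7. The block from 20 to 30 Mb had 5 of 70 (7.14%, 2.36 to 15.9). The intervals of single blocks are wide and overlap each other, so these counts give no order among the 7.

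**Figure D3:**
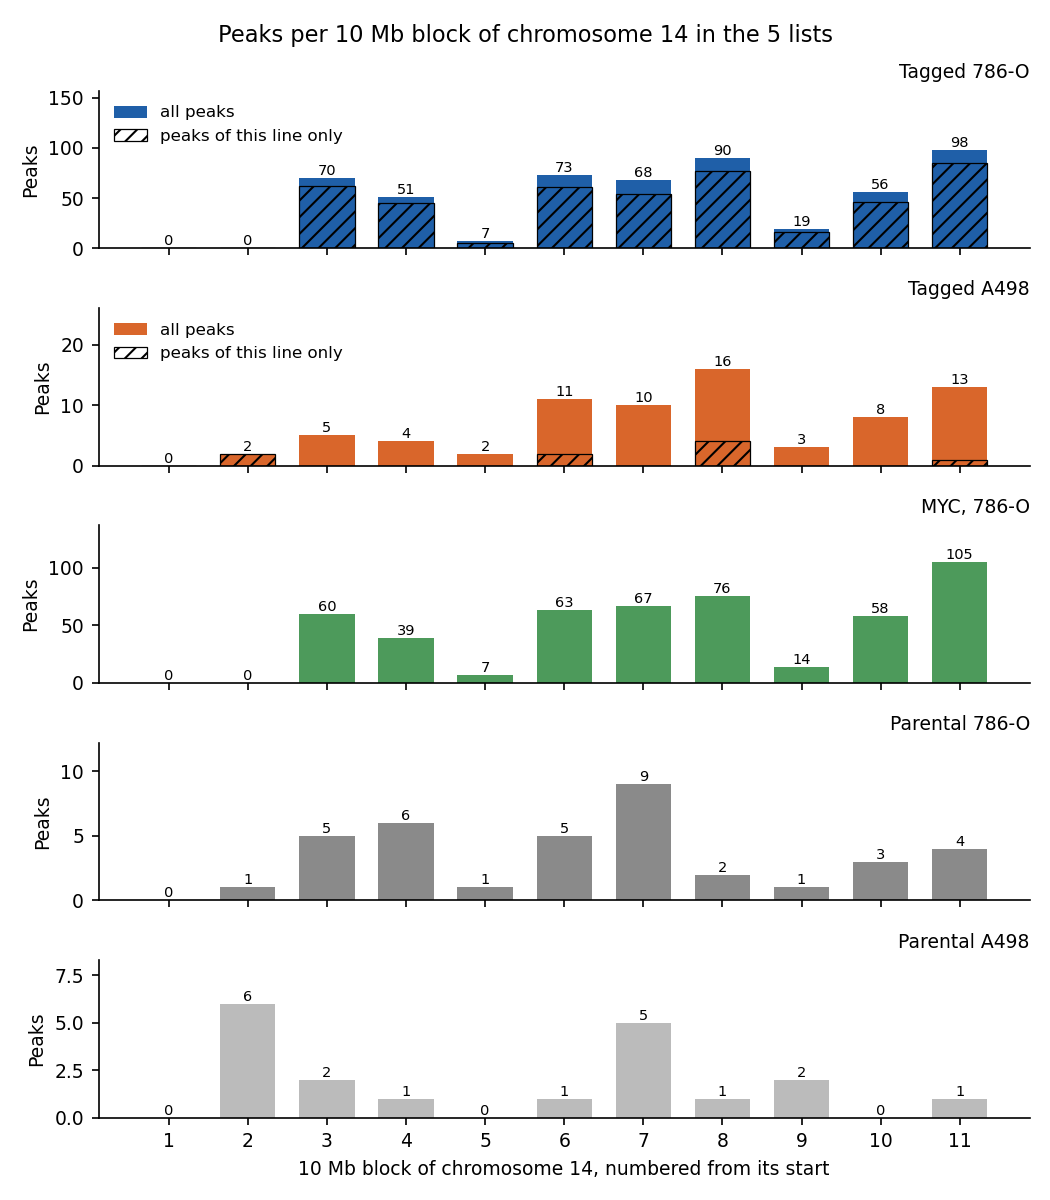
Number of peaks (vertical axis) per 10 Mb block of chromosome 14 (horizontal axis, block 1 from 0 to 10 Mb and block 11 from 100 to 110 Mb) in the 5 lists. Filled bars are all peaks and hatched bars are peaks of that line only; tagged 786-O and MYC are both low in blocks 5 and 9, and tagged A498 reaches at most 16.

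The densest Mb for both antibodies in 786-O was 105 to 106 Mb, with 38 tagged 786-O, 6 tagged A498 and 41 MYC peaks. It was followed in tagged 786-O by 23 to 24 Mb with 21 peaks and 24 to 25 Mb with 20; tagged A498 had 1 and 2 peaks in these. In all, 71 of the 89 bins of 1 Mb from 19 Mb on held a tagged 786-O peak, 37 a tagged A498 peak and 65 a MYC peak. The longest stretch without a tagged 786-O peak ran 4.88 Mb from 25519672, and the longest without a MYC peak ran 5.51 Mb from 25519371. The longest in tagged A498 ran 10.02 Mb, from 35344415 to 45366634. Joining peaks within 1 kb gave 466 sites in tagged 786-O and 70 in tagged A498.

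The highest tagged 786-O peak of the chromosome, at 68140886 to 68142031, scored 166 and ranked 66 of 20034 in its list. It had no parental peak in either line, a tagged A498 peak with a score of 36.1 (rank 180 of 7718) and a MYC peak near the foot of the MYC list, with a score of 4.99 and rank 18898 of 20199. The second, at 77786688 to 77787969, scored 123 (rank 180). It was the highest tagged A498 site of the chromosome, at 77787084 to 77787433 with a score of 49.4 (rank 90), and had a MYC peak with a score of 60.4. Both sites therefore stood high in both lines, in opposite order.

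The third tagged-only 786-O peak, at 91883669 to 91884715, scored 103 and had no A498 peak of either kind. It coincided with a MYC peak scoring 128, and it led the chromosome by the sum of ZNF395-eGFP and MYC ranks (306 and 637). The other 7 of the 10 highest tagged-only 786-O peaks began at 55493530, 92587634, 50582972, 24657611, 75389680, 105399500 and 77413432, with scores from 97.4 to 78.9. Of all 10, 8 had a tagged A498 peak and 8 a MYC peak. In the highest of 10 equal parts by score, 74.0% of all tagged 786-O peaks elsewhere had a tagged A498 peak and 87.5% a MYC peak. The site at 75389680 also lacked an A498 peak, and those at 92587634 (score 95.2) and 105399500 (score 84.5) lacked MYC.

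In tagged A498 the 10 highest tagged-only peaks of the chromosome all had a tagged 786-O peak and 6 had a MYC peak. Their scores fall in the highest and the next of 10 equal parts of autosomal A498 scores. There 93.1% and 89.1% of all tagged A498 peaks elsewhere had a tagged 786-O peak, and 68.1% and 74.4% a MYC peak. After the sites at 77787084 and 68141368 came 62162522 to 62162851, with a score of 21.9 and rank 407. There the tagged 786-O peak scored 20.1 and ranked only 6859, and no parental peak overlapped the A498 peak. A MYC peak overlapped the wider 786-O peak, at 62162070 to 62163082, but not the A498 peak within it. The next were at 74226827 (score 19.01), 92588233 (18.1), 56046788 (14.4), 100706335 (13.6), 77422834 (13.4), 93581694 (13.2) and 102783250 (12.3). The last had a parental 786-O peak with a score of 5.92. Of all 74 peaks, 6 (8.11%, 3.03 to 16.8) were in the highest 10% of autosomal A498 scores.

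Over the 63 sites of both lines, scores were related (Spearman's rho 0.41 across sites, 0.44 over the 3938 such sites of the other autosomes). These are sites of 2 libraries, not replicates. Tagged 786-O peaks were the wider at 61 of the 63, with a median of 853 bp, against 290 bp for the A498 peaks there. Their midpoints lay a median of 120.5 bp apart. Without MYC there were 10 such sites, among them the 3 strong 786-O peaks at 92587634, 102783169 and 105399500, and the weakest of all at 99887162, with scores of 2.08 in 786-O and 2.35 in A498.

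**Figure D4:**
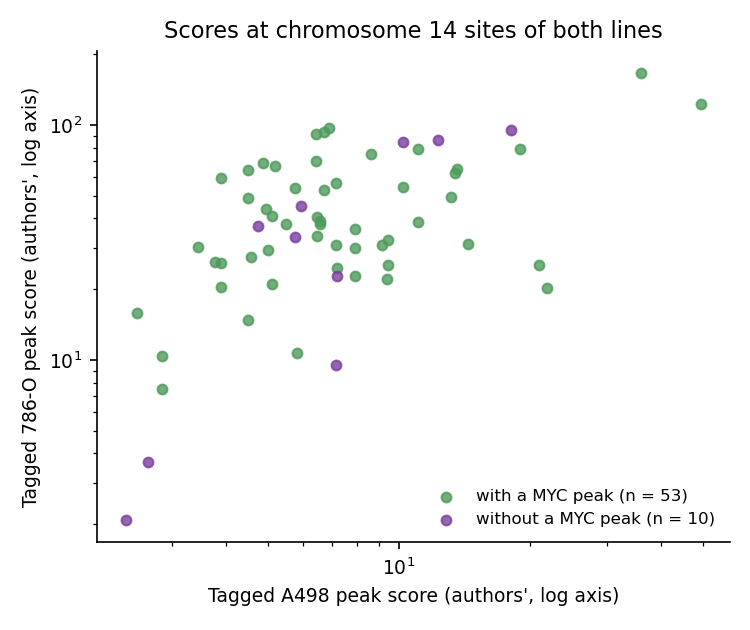
Authors' peak score in tagged 786-O (vertical log axis) against that in tagged A498 (horizontal log axis) at the 63 tagged 786-O peaks of chromosome 14 with a tagged A498 peak, coloured by overlap with MYC. Each point is 1 site; the 2 points at the upper right are those at 68140886 and 77786688, and the sizes of scores are not comparable between the axes.

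Peaks of 1 line only were numerous in 786-O and rare in A498. A peak was counted as line-only when it had no parental peak of its own line and no tagged peak of the other. In 786-O 451 of 532 were so (84.8%, 81.4 to 87.7), against 73.1% (72.5 to 73.7) elsewhere, and in A498 9 of 74 (12.2%, 5.71 to 21.8), against 42.2% (41.1 to 43.3). The 786-O-only peaks numbered 62 from 20 to 30 Mb, 45 from 30 to 40 Mb, 5 from 40 to 50 Mb, 61 from 50 to 60 Mb and 54 from 60 to 70 Mb. They numbered 77 from 70 to 80 Mb, 16 from 80 to 90 Mb, 46 from 90 to 100 Mb and 85 beyond, the larger part of each block. Of the 451 786-O-only peaks, 223 (49.4%, 44.7 to 54.2) had a MYC peak, against 53.5% (52.7 to 54.4) elsewhere, with overlapping intervals. Their median score was 10.7, against 10.0 on the other autosomes, and their median width 338 bp, against 314 bp. The 5 highest of these 786-O-only peaks began at 91883669 (score 103), 75389680 (86.1), 74353317 (73.7), 24740567 (71.9) and 103995155 (66.9), and 4 of them had a MYC peak, the exception being 74353317.

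The 9 A498-only peaks numbered 2 from 10 to 20 Mb, 2 from 50 to 60 Mb, 4 from 70 to 80 Mb and 1 beyond 100 Mb. They scored from 3.90 to 10.2 and none had a MYC peak, against 1.48% (1.08 to 1.97) of such peaks elsewhere; MYC was measured in 786-O only. The highest was at 50998957 to 50999297, followed by 101053514 (score 7.17). A group of 3 lay together, at 75745962, 75747889 and 75750043, with scores of 4.49, 5.18 and 5.12. Just before the first of them lay a tagged 786-O peak at 75745120 to 75745890 (score 22.7), itself with a tagged A498 peak (score 7.90). The locus is therefore not particular to A498. There were 2 more A498-only peaks at 19401056 and 19720429, proximal to any tagged 786-O or MYC peak, and others at 55595918 and 76963069. The only other tagged A498 peak without a tagged 786-O peak, at 35017042, lay at a parental A498 peak.

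For MYC sites of chromosome 14, the share with a tagged 786-O peak had an interval overlapping that of the other autosomes before matching by score and lay above theirs after it, and the share with a tagged A498 peak lay below theirs. Of the 489, 310 (63.4%, 59.0 to 67.7) overlapped a tagged 786-O peak, against 60.8% (60.1 to 61.4), and 50 (10.2%, 7.69 to 13.3) a tagged A498 peak, against 17.5% (16.96 to 18.0). Over all 22 autosomes these shares were 60.8% and 17.3%. With peaks matched by part of score the other autosomes gave 57.6% with a tagged 786-O peak, below the interval of chromosome 14, and 15.3% with a tagged A498 peak, above it. The A498 share is bounded by the low number of tagged A498 peaks on the chromosome, matched or not. In the lower 5 parts of MYC scores 57.1% (51.1 to 62.9) had a tagged 786-O peak, against 48.3% (47.3 to 49.3) elsewhere, and in the upper 5 parts 72.0% (65.3 to 78.0), against 73.1% (72.2 to 74.0). With tagged-only 786-O peaks the share was 58.3% (53.8 to 62.7), against 51.4%. For tagged 786-O the order depends on the overlap rule. The share was 34.8% (30.5 to 39.2) against 39.8% with 50% reciprocal overlap. With midpoints within 200 bp it was 41.5% (37.1 to 46.0) against 45.6%, which lies within that interval. All 50 sites with an A498 peak also had a tagged 786-O peak. This was nearly so elsewhere too, where 17.5% of MYC peaks had a tagged A498 peak and 17.3% had both. On chromosome 14 the 260 sites with a 786-O peak alone had a median MYC score of 14.2, those with both 19.8, and the 179 with neither 11.5.

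By block, the share of MYC sites with a tagged 786-O peak was 68.3% (41 of 60) from 20 to 30 Mb, 76.9% (30 of 39) from 30 to 40 Mb and 73.0% (46 of 63) from 50 to 60 Mb. It was 56.7% (38 of 67) from 60 to 70 Mb, 67.1% (51 of 76) from 70 to 80 Mb, 50.0% (29 of 58) from 90 to 100 Mb and 61.9% (65 of 105) beyond 100 Mb. The sparse blocks gave 5 of 7 and 5 of 14. The proximal block at 76.9% (60.7 to 88.9) and the distal one at 50.0% (36.6 to 63.4) have overlapping intervals, and the 248 blocks of other autosomes with at least 20 MYC peaks ranged from 31.3% to 86.9%, with a median of 60.8%. For tagged A498 the 7 blocks ranged from 5.13% to 12.7%, all below the lower quartile of 12.95% of the other blocks, whose median was 17.1%.

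**Figure D5:**
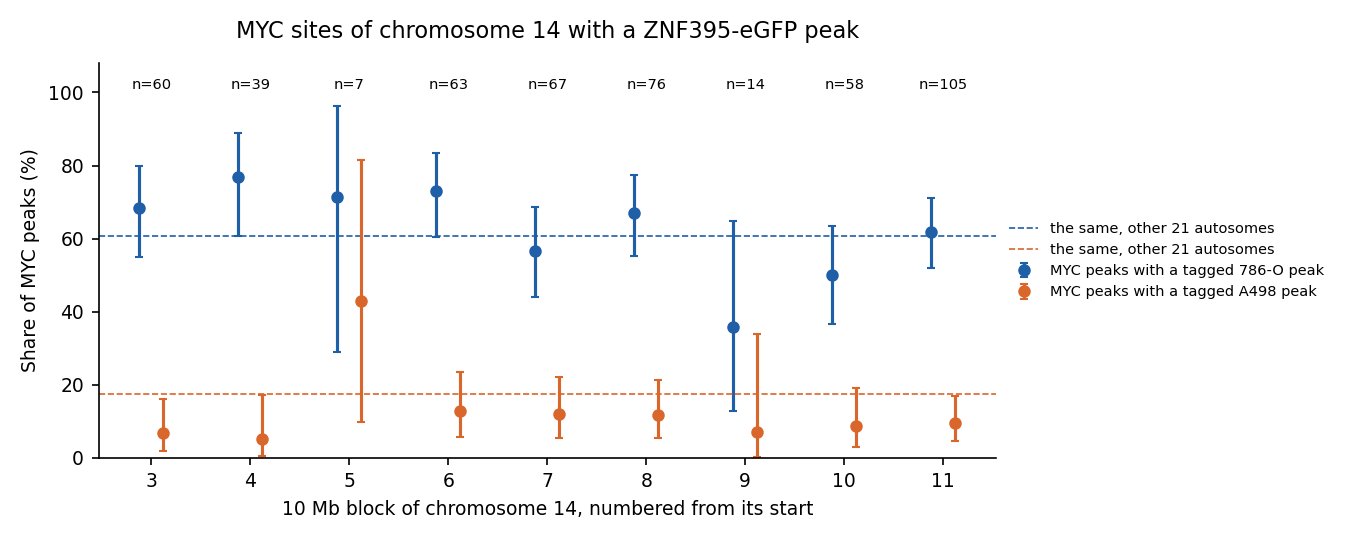
Share of MYC peaks (vertical axis, percent) that overlap a tagged 786-O or a tagged A498 peak, per 10 Mb block of chromosome 14 (horizontal axis, blocks 3 to 11), with n the MYC peaks of the block. Points are shares, bars exact 95% intervals, and dashed lines the shares on the other 21 autosomes, 60.8% and 17.5%; the A498 points lie below their line except in block 5, which has 7 MYC peaks.

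The 2 highest MYC peaks of the chromosome had no tagged peak in either line. They were at 93412622 to 93413323, with a score of 176 and rank 275 of 20199, and at 61447286 to 61448126, with a score of 168 and rank 315, and had no parental peak either. The third, at 103995210, scored 162 and had a tagged 786-O peak scoring 66.9. Other strong MYC peaks without a tagged 786-O peak were at 50467348 (score 77.8), 64854048 (77.3) and 23398328 (57.6). Among the 50 highest MYC peaks of the chromosome, 43 (86.0%, 73.3 to 94.2) had a tagged 786-O peak and 7 (5.82% to 26.7%) a tagged A498 peak. In the highest of 10 equal parts by MYC score, 22 of 26 on chromosome 14 (84.6%, 65.1 to 95.6) had a tagged 786-O peak, against 86.4% (84.8 to 87.9) elsewhere. There 5 of 26 (19.2%, 6.55 to 39.4) had a tagged A498 peak, against 38.2% (36.1 to 40.4), with overlapping intervals in both cases. Conversely, the highest tagged-only 786-O peaks without MYC began at 92587634, 105399500, 74353317, 74292311 and 54863261, with scores from 95.2 to 47.7.

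Taken from the other side, 288 of the 532 tagged 786-O peaks (54.1%, 49.8 to 58.4) had a MYC peak, against 61.1% (60.4 to 61.8). This was the lowest share of the 22 autosomes. Chromosomes 6 (55.2%), 18 (55.3%), 4 and 7 (56.0% each) lay within its interval, among others, so the last place is not distinct. With peaks matched by part of score the other autosomes gave 59.7%. MYC peaks themselves had a median score of 13.5 on chromosome 14, against 16.4 elsewhere, the lowest median of any autosome, and a median width of 387 bp, against 425.5 bp. For tagged A498, 48 of 74 peaks (64.9%, 52.9 to 75.6) had a MYC peak, against 47.7% (46.6 to 48.9). This share was higher on chromosomes 22 (70.5%), 3 (69.9%) and 6 (69.5%). All 48 were among the 64 with a tagged 786-O peak (62.6% to 84.98%), against 82.5% (81.3 to 83.6) of such peaks elsewhere. Among these sites chromosome 14 was thus not the higher, and the intervals overlap. A498-only peaks, of which 1.48% had MYC elsewhere, made up 12.2% of tagged A498 peaks here, against 42.2%. The share over all 74 is thus not separate from the share with a tagged 786-O peak.

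GFP background peaks of both parental lines were few on chromosome 14. It held 1.14% (0.806 to 1.57) of the autosomal parental peaks in 786-O and 1.39% (0.841 to 2.17) in A498, with overlapping intervals. Tagged A498 peaks were similarly scarce (0.994%), so a ratio of tagged to parental peaks sets apart 786-O but not A498. Tagged 786-O peaks numbered 14.4 per parental 786-O peak (10.3 to 20.6), against 5.92 (5.70 to 6.15) elsewhere, the highest ratio of the 22 autosomes. Only 28 tagged 786-O peaks (5.26%, 3.53 to 7.52) lay at a parental peak, against 12.3% (11.8 to 12.7), again the lowest share of any autosome. With peaks matched by part of score the other autosomes gave 11.5%. The chromosome had 37 parental 786-O peaks for its 532 tagged ones, which bounds this share whatever the scores, so it largely restates the ratio. Tagged A498 peaks numbered 3.89 per parental A498 peak (2.33 to 6.83), against 5.48 (5.17 to 5.81), and 5 of the 74 (6.76%, 2.23 to 15.1) lay at one, against 6.44% (5.89 to 7.03), so in A498 the intervals overlap. In the upper 50% of scores this A498 share was 0 (0.0 to 8.04) on chromosome 14, against 7.17% elsewhere, which lies within that interval.

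The 37 parental 786-O peaks scored from 2.07 to 47.9. The highest, at 20811153 to 20811660, ranked 102 of 3361 and was called in all 5 lists, with a score of 14.7 in tagged 786-O, 4.49 in tagged A498, 7.62 for MYC and 3.20 in parental A498. The fullest Mb was 69 to 70 Mb, with 5 parental 786-O and 4 parental A498 peaks. Its 5 parental 786-O peaks lay between 69252710 and 69262123. Of the 37, 27 (73.0%, 55.9 to 86.2) had a tagged 786-O peak and 25 (67.6%, 50.2 to 82.0) a MYC peak, against 76.5% and 61.8% elsewhere.

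Of the 19 parental A498 peaks, 6 lay between 19008010 and 19041720, at the proximal end of the assembled sequence, with widths from 112 to 144 bp and scores from 19.1 to 36.9. No tagged or MYC peak overlapped these 6, and 1 of them, at 19012512, was also a parental 786-O peak, with scores of 30.2 in 786-O and 33.7 in A498. The highest parental A498 peak elsewhere, at 77736040, scored 25.4 and had a tagged 786-O peak with a score of 12.1. In all, 5 of the 19 overlapped a parental 786-O peak (26.3%, 9.15 to 51.2), against 47.7% (45.0 to 50.4) on the other autosomes.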

How the data were processed

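ChIP-seq peak lists of 5 of the 9 samples were used; the 4 inputs have no list here. The submitters' processing notes name BWA, MACS2 and hg19, with no version, role or setting. The peak names in the deposited files pair each library with 1 control library. The authors' deposited peak score was taken as the −log10 of a p- or q-value, since each list begins just above 2; which of these it is, and the depth behind single peaks, are unknown. Per the labels, libraries averaged 30 to 50 M reads, after fixation in 1% formaldehyde for 10 min.

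Starts are printed 1-based. Overlap meant at least 1 bp in common; blocks were assigned by peak midpoint. Shares carry exact 95% binomial intervals, which treat peaks as independent. Peaks were named by score (10 tagged-only peaks per line, 5 of other classes, and the highest of each block); other positions were chosen after their values were seen. No hg19 sequence or annotation was used, so genes and sequences at peaks were not analysed here. The members and lists were chosen with earlier results of these data known. Overlap calls were checked on simulated peaks and against bedtools 2.31.1. Intervals came from scipy 1.17.1, tables from pandas 2.3.3 and numpy 2.4.6, and figures from matplotlib 3.10.9, under Python 3.11.15.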

Additional observations from a re-analysis of the deposited data

How the results depend on the processing

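Of 59 recomputed values, 32 stayed within the 95% interval of the reported one and 27 left it; the cause of these moves was not tested except where stated. The ratio of tagged 786-O to tagged A498 peaks, whose alternatives were chosen after the data were seen, was 5.61 in the upper 50% of scores, 2.53 with lists of equal length and 11.96 in bases covered. The share of autosomal tagged 786-O peaks on chromosome 14 was 2.48% with lists of equal length; that of MYC was 2.09% in the upper 50%, 1.93% with equal lists and 2.21% in bases. All 6 alternatives for tagged A498 stayed within its interval. With lists of equal length it could not move, since lists were cut to the length of the tagged A498 list. The same holds for the share of tagged A498 peaks at parental A498 peaks, 6.76% both times. Both are counted among the 32.

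Tagged-only 786-O peaks with an A498 counterpart made up 15% in the upper 50%, 26.7% with equal lists, 1.39% if overlap was 50% reciprocal and 6.75% by midpoints within 200 bp; this was below that of the other autosomes each time. Tagged-only A498 peaks with a 786-O counterpart made up 84.1% in the upper 50%, 10.1% with reciprocal overlap, 49.3% with midpoints and 86.5% without parental subtraction. MYC peaks with a tagged 786-O peak made up 54.1% in the upper 50%, 48.6% with equal lists, 34.8% with reciprocal overlap, 41.5% with midpoints and 58.3% with tagged-only peaks. Those with a tagged A498 peak made up 15.8% with equal lists, 3.27% with reciprocal overlap and 7.16% with midpoints, and stayed below the other autosomes in all 6 alternatives. Tagged 786-O peaks at parental peaks made up 2.83% in the upper 50%, 8.02% with equal lists and 0.752% with reciprocal overlap, below the other autosomes in all 5 alternatives. Tagged A498 peaks at parental peaks made up 0.0% in the upper 50%. A 50% reciprocal overlap cannot be met where a peak is over 2 times as wide as its partner, as the median 786-O peak is at A498 sites. No paired analysis was possible because each group is 1 library.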
